A study of Mus musculus with 39 samples.

Results

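The immediate early genes are a set of 10 genes, Fos, Fosb, Jun, Junb, Jund, Egr1, Nr4a1, Atf3, Ier2 and Dusp1, chosen by name, with earlier results of these data known. Each symbol occurred once in both deposited gene tables, so the set made up 10 of the 46333 genes listed for females and 10 of the 54532 listed for males. RNA was sequenced from microglia, the resident macrophages of the brain, which were isolated from the cerebrum with magnetic beads against CD11b, a surface integrin of myeloid cells. Wildtype (WT, C57Bl6) mice and 5XFAD mice, which carry transgenes driven by the neuronal Thy1 promoter and deposit amyloid in the brain, were kept in room air cycling at 21% O2 (normoxia, NX) or in chronic intermittent hypoxia (CIH) with 6.5% O2. All 8 groups shared the chamber schedule of 90 s intervals for 8 hours during the sleep period, starting at 4 months of age. These are the labels' values, and the study's methods give a slightly lower O2 level and a longer daily exposure. The female groups were taken at 10 months and were F WT NX (n = 4 libraries), F WT CIH (n = 5), F 5XFAD NX (n = 5) and F 5XFAD CIH (n = 5). The male groups were taken at 8 months and were M WT NX, M WT CIH, M 5XFAD NX and M 5XFAD CIH (n = 5 each). The library labels of both sexes write CIH as IH. Females and males differed in age and were counted against different gene models, so no test was made between them. The labels do not say whether a library is 1 mouse or a pool, and p-values measure the spread between these libraries.

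Immediate early genes are transcribed within minutes of a stimulus, from promoters that are already open, without the need for new protein. MAP kinases and calcium or cAMP signals act on factors such as SRF and CREB that already sit on the DNA. Fos, Fosb, Jun, Junb and Jund encode subunits of the AP-1 transcription factor, Egr1 a zinc finger activator and Nr4a1 an orphan nuclear receptor (Nur77). Atf3 encodes a stress-induced ATF/CREB family factor that restrains inflammatory transcription in macrophages. Ier2 encodes a small nuclear protein, and Dusp1 a phosphatase that switches p38 and JNK off. The same genes are known to rise in microglia during warm enzymatic dissociation of the brain, and the cells here were released with papain and DNase at 37 °C. Libraries of undissociated tissue were not analysed here, so transcription in the brain and transcription during isolation cannot be told apart.

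RefSeq promoter windows (GRCm38.p6) were found for 8 of the 10 genes, and the 250 bases before the annotated start were searched because the genes below moved together between libraries. The CRE half-site TGACG, read on either strand and written CGTCA on the other, is a binding letter sequence of CREB and ATF proteins. It lay in 6 of the 8 windows, against 17.8% of 32851 windows over all genes, and was not found in those of Jun and Jund. The windows precede the RefSeq start. The window of Jund ends upstream of the gene as counted in males, those of Nr4a1 and Atf3 lie inside the counted gene, and no window was searched at its outer start for these 3. The 8 windows held between 47.6% and 74.4% G and C, and windows were not matched on base composition. Capitals mark the half-site in 6 of the sequences, given 5′ to 3′ on the strand of the gene.
Fos: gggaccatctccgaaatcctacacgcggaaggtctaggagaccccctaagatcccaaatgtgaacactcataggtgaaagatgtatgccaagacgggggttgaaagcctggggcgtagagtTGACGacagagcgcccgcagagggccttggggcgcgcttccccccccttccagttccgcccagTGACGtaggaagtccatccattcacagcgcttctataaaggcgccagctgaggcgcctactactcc
Fosb: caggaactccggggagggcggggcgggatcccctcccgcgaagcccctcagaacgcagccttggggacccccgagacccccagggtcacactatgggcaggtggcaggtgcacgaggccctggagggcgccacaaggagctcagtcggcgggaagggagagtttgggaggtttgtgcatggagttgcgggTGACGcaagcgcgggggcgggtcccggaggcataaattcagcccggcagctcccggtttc
Nr4a1: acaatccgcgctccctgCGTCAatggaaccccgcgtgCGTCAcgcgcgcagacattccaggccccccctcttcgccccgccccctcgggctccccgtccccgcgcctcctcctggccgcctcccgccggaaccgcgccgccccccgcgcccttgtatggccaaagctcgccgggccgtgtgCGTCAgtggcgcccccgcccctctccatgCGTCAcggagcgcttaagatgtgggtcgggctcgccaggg
Dusp1: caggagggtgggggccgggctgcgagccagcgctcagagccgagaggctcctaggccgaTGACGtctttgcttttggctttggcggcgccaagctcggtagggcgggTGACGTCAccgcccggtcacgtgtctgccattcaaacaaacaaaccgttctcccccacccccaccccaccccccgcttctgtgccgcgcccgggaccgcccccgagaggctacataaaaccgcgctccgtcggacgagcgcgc
Junb: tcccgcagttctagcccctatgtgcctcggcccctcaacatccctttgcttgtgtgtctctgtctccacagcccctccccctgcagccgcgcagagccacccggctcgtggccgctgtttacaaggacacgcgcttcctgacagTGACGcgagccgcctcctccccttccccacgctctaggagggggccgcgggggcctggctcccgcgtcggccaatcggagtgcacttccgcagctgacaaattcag
Atf3: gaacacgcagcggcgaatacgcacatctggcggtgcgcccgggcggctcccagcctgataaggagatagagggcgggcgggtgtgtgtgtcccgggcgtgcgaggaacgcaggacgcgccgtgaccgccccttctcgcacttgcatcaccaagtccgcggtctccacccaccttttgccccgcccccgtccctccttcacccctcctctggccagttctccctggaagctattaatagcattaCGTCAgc
The Fos stretch lies on the plus strand at chr12:85473640-85473889, with half-sites beginning 129 and 66 bases before the start and a TATAAA 33 bases before it. The Fosb stretch (chr7:19310046-19310295, minus strand) has 1 half-site at 60 bases. Nr4a1 (chr15:101266596-101266845, plus strand) has 4 half-sites, and Dusp1 (chr17:26508473-26508722, minus strand) has 3, a pair of which overlap in a full TGACGTCA 143 bases before the start. That full palindrome lay in 1.55% of all windows. Junb (chr8:84978749-84978998, minus strand) has 1 half-site 106 bases before the start and Atf3 (chr1:191183334-191183583, minus strand) has 1 at 7 bases. The letters TATAAA, on either strand, lay in 1 of the 8 windows and in 12.4% of all windows. No window held the AP-1 letters TGANTCA (6.75% of all windows, palindromic) or a CArG box, the core of the serum response element bound by SRF (1.47% of all windows). These are matches of letters in a short window and not sites of binding.

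In the male table, which gives GRCm38 coordinates, the genes lie at chr12:85473890-85477273 (Fos), chr7:19302696-19310051 (Fosb), chr4:95049034-95052222 (Jun), chr8:84974484-84978718 (Junb), chr8:70698949-70700616 (Jund), chr15:101254269-101274795 (Nr4a1), chr1:191170296-191218039 (Atf3), chr8:84661331-84662852 (Ier2) and chr17:26505590-26508519 (Dusp1). GENCODE M21 places the antisense genes Junos and Gm11175 across Jun and Jund, the end of Prdx2 across Junb, parts of Ergic1 and Gm8225 across Dusp1 and Gm24748 within Atf3, each on the opposite strand. Dusp1 also overlaps AC122252.1 and AC122252.4 on its own strand, by 1853 and 227 bases, which strand cannot separate. Whether the counting used the strand is not given in the sources used here, so reads of these 5 genes may include reads of their partners. Jund was counted over 1668 bases in males and 2877 bases in females, and its levels are not set side by side between the sexes.

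Counts were scaled to CPM, counts relative to library size, with TMM factors over all libraries of a sex. Libraries held 14731683 to 25906121 counts in females and 13457293 to 23095627 in males. The smallest count of any of the 10 genes in a library was 135 reads (Fosb, M 5XFAD NX 2). Of the labelled cell type, 8 microglial markers (Cx3cr1, P2ry12, Tmem119, Csf1r, Sall1, Itgam, Siglech, Fcrls) summed to 23463 to 30419 CPM in WT libraries and 17980 to 22269.5 CPM in 5XFAD libraries. Markers of other cells reached 1929.95 CPM in a library for choroid plexus, 1149.96 for neutrophils, 962 for astrocytes, 529 for oligodendrocytes, 316 for border macrophages, 285 for endothelium, 234 for erythroid cells, 14.6 for neurons and 12.5 for T cells.

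Some libraries stood apart from their group over all genes. Replicate libraries were distinct, with a chi-square per gene of 4.59 to 40.3 between most pairs of a group. M 5XFAD NX 4 and 5 differed from libraries 1, 2 and 3 of that group by 77.8 to 112, against 6.97 to 17.7 within either side. F 5XFAD NX 4 differed from its group by 65.1 to 139 and M 5XFAD CIH 5 by 30.7 to 85.5; leaving out the latter changed no call among the 10 genes. In M 5XFAD NX the genes Jund (103, 122, 102, 44.8 and 34.98 CPM in libraries 1 to 5), Ier2 (63.5, 73.7, 61.5, 36.4 and 31.6) and Junb (367, 326, 302, 219 and 176) followed this split, and results are given below with and without libraries 4 and 5.

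Per transcript length, using the deposited FPKM, Fosb ran from 7.0 to 67.3 FPKM over the female libraries, Nr4a1 from 11.6 to 53.3 FPKM and Junb from 146 to 381 FPKM.

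**Figure D1:**
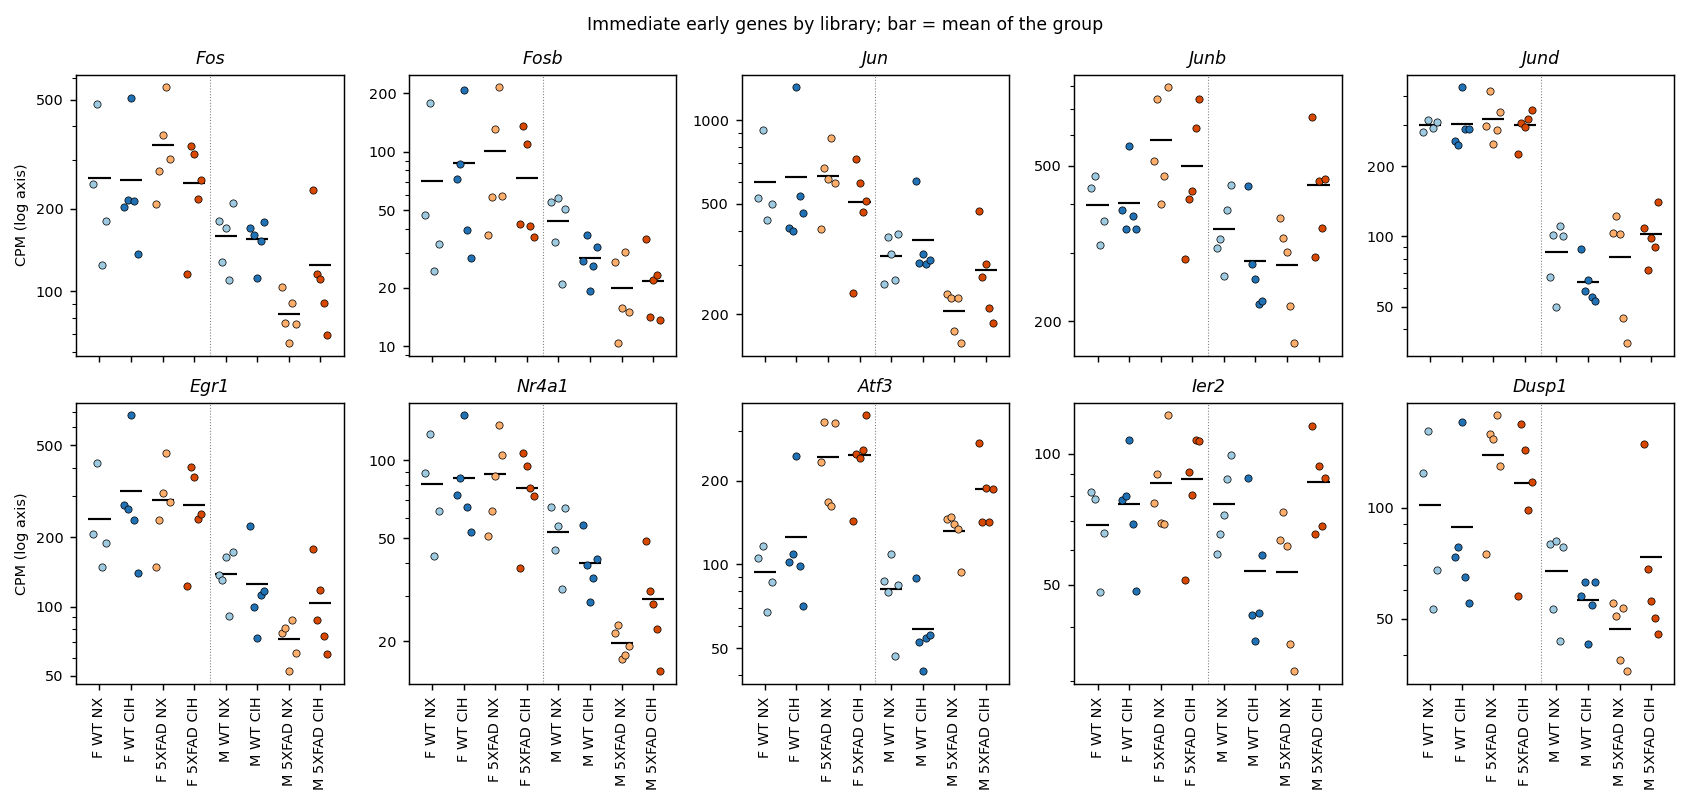
CPM of each gene (log axis) in every library of the 8 groups, females left of the dotted line and males right of it; points are libraries and bars group means. Atf3 is higher in the 5XFAD groups, whereas Nr4a1, Fos and Egr1 are lowest in M 5XFAD NX.

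Between libraries of 1 group, these genes varied far more than most. The SD of log2 CPM within groups had a median over the 10 genes of 0.58 in females, against 0.16 over the 9297 genes with a mean of at least 10 CPM. In males it was 0.43 against 0.24 over 9130 genes. Fosb spread widest, at 1.06 in females, a value above 99.3% of those genes, and 0.56 in males, above 97.1%. Jund, the AP-1 subunit usually described as constitutive, spread least in females at 0.26, but in males it came next after Fosb at 0.53. Without M 5XFAD NX 4 and 5 the male value of Jund was 0.37, beside 0.37 for Junb and Ier2 and 0.55 for Fosb. By group, the medians over the 10 genes were 0.49 (F 5XFAD NX) to 0.65 (F WT CIH) in females and 0.29 (M 5XFAD NX) to 0.55 (M 5XFAD CIH) in males. The value over all genes was not computed for each group, so a spread above that of other genes is not shown group by group.

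Some libraries were high or low for most of the set, although leaving out any 1 library kept the median spread between 0.499 and 0.599 in females and between 0.372 and 0.444 in males. In F WT CIH, Fos was at 203, 214, 508, 214 and 137 CPM and Jun at 407, 399, 1312, 534 and 462 CPM in libraries 1 to 5. Library 3 of that group was the highest for all 10 genes, on average 0.995 above its group mean on the log2 scale. F WT NX 2 stood 0.70 above its group and had Fosb at 179 CPM, where libraries 1, 3 and 4 had 47.4, 24.4 and 33.5 CPM. At the other end, F 5XFAD CIH 1 was 0.81 below its group mean and the lowest of its group in 9 of the 10 genes. In males, M 5XFAD CIH 1 stood 0.73 above and M WT CIH 1 stood 0.50 above their groups, so each was the library that most raised its own group.

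**Figure D2:**
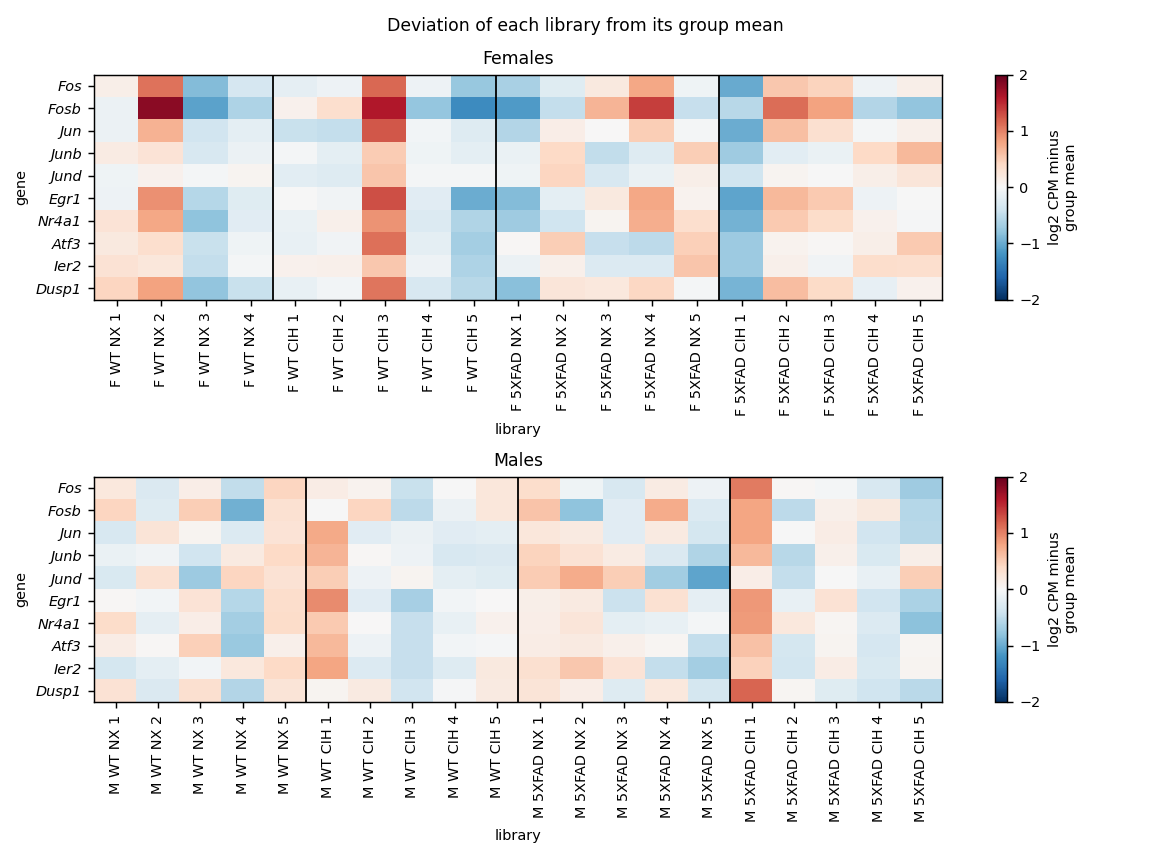
Log2 CPM of each gene minus the mean of its group, by library (columns, vertical lines between groups) for females and males; red is above and blue below the group mean. F WT CIH 3, F WT NX 2 and M 5XFAD CIH 1 are red across most rows and F 5XFAD CIH 1 is blue.

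The 10 genes did not rise and fall as 1 block. Group-centred log2 CPM of pairs of genes were correlated over 19 female and 20 male libraries. The genes of a library share its preparation and depth, and these values are a description. Fos moved with Egr1 (r = 0.97 in females, 0.81 in males), Nr4a1 (0.96 and 0.89) and Dusp1 (0.94 and 0.94), and with Fosb (0.89 and 0.75). Junb moved instead with Ier2 (0.86 and 0.85) and Jund (0.81 and 0.81). Over the 15 pairs of Fos, Fosb, Jun, Egr1, Nr4a1 and Dusp1 the median was 0.90 in females (0.74 to 0.97) and 0.75 in males (0.36 for Fosb with Jun to 0.94). The 18 pairs between these 6 genes and Junb, Jund and Ier2 had a median of 0.45 in females, from 0.04 (Fosb with Junb) to 0.68 (Jun with Jund), and of 0.30 in males, from -0.34 (Fosb with Jund) to 0.63 (Jun with Junb). The blocks were named after these values were seen, and their ranges overlap. Atf3 went with Ier2 (0.90) and Junb (0.87) in females, whereas in males its highest correlation was with Egr1 (0.79). Over all 45 pairs the median was 0.63 in females and 0.58 in males, and over all pairs of genes with at least 10 CPM it was 0.04 and 0.01. Without the 2 libraries farthest from the median of each sex (F WT CIH 3 and F 5XFAD CIH 1, M 5XFAD CIH 1 and M WT CIH 1) the median fell to 0.41 and 0.42. Within the block of 6 genes the median was then 0.88 and 0.72 (lowest 0.73 and 0.27, Fosb with Jun), and between the blocks 0.15 and 0.02 (highest 0.47 and 0.34). The 3 pairs of Junb, Jund and Ier2 ran from 0.41 (Jund with Ier2) to 0.79 in females and from 0.76 to 0.87 in males. In males these 3 pairs ran from 0.55 to 0.79 without M 5XFAD NX 4 and 5.

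**Figure D3:**
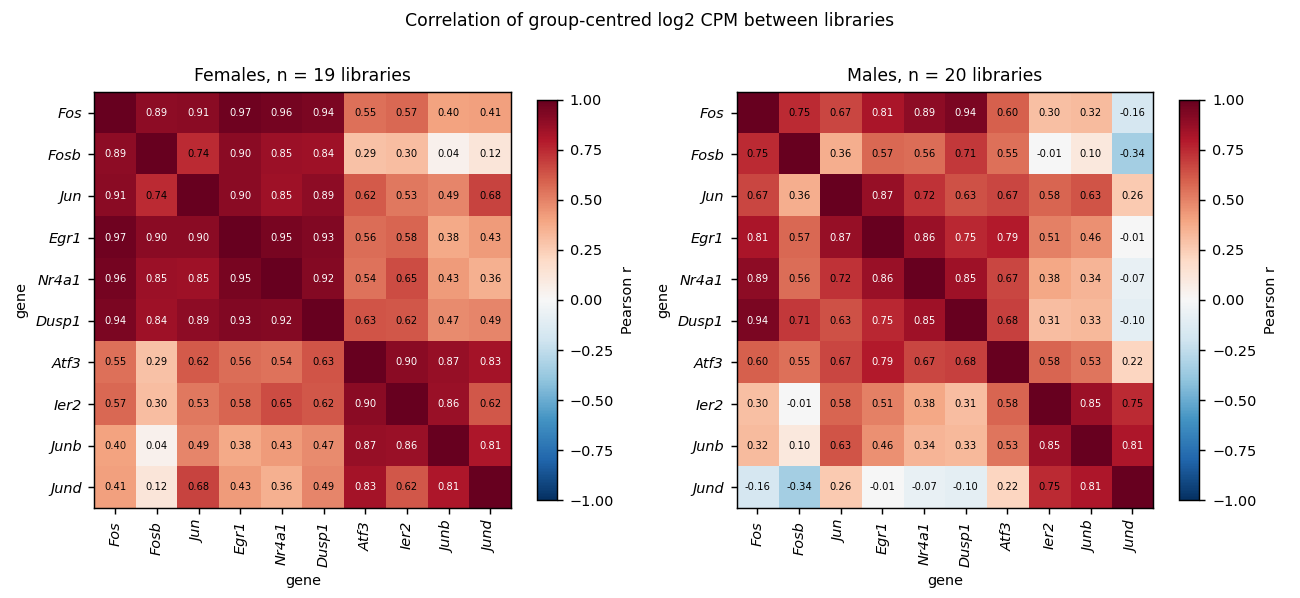
Pearson r of group-centred log2 CPM between libraries for each pair of the 10 genes, in females (19 libraries) and males (20 libraries). Fos, Fosb, Jun, Egr1, Nr4a1 and Dusp1 form a red block at the upper left and Ier2, Junb and Jund a second at the lower right, with Atf3 between.

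Outside the set, the 5 genes whose group-centred level was most like the mean of the 10 genes over the female libraries were Ppp1r15a (r = 0.96), which encodes a stress-induced subunit that reverses eIF2α phosphorylation, Nfkbid (0.93), an IκB protein, Gem (0.91), a small GTPase, Klf4 (0.86) and Egr2 (0.85). Over the male libraries they were Ppp1r15a again (0.86), Nfkbia (0.84), the IκBα inhibitor, Ier3 (0.82), Osm (0.81), which encodes the cytokine oncostatin M, and Zfp36 (0.81), which encodes an mRNA decay factor. Without the 2 farthest libraries the female values were 0.79 to 0.96 and the male values 0.62 to 0.76.

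The genotype comparison asks how amyloid-bearing 5XFAD microglia differed from WT at a given treatment. In males kept in normoxia, 6 of the 10 genes passed an FDR of 0.05 in WT NX vs 5XFAD NX, 5 lower and 1 higher in 5XFAD, where 17.8% of 14834 tested genes passed (10.4% higher and 7.37% lower). With the added demand of an absolute log2FC above 1, which defines a DEG here, 2 were DEGs (Nr4a1 and Fosb, both lower) against 8.25% of tested genes. The median log2FC of the 10 genes was -0.59, against 0.02 over all tested genes. Log2FC is positive where the second-named group is higher, and FDR is the Benjamini-Hochberg adjusted p of the edgeR quasi-likelihood test over all tested genes.

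Among AP-1 subunits, Fos was at 180, 127, 170, 110 and 209 CPM in M WT NX and at 104, 76.4, 64.7, 90.7 and 75.9 CPM in M 5XFAD NX. The groups did not overlap, and Fos fell by 0.95 on the log2 scale (SE 0.18, FDR = 0.00324). Jun was at 257, 380, 330, 265 and 388 CPM in WT and at 237, 228, 173, 228 and 158 CPM in 5XFAD. Every 5XFAD value of Jun was again below every WT value, with a log2FC of -0.66 (SE 0.16, FDR = 0.0125). With replicate number added to the fit (the replicate block), the FDR of Jun was 0.0813, where 8.83% of all tested genes passed. Fosb was at 55.1, 34.5, 57.8, 21 and 50.7 CPM in WT and at 27.2, 10.4, 15.7, 30.7 and 15.1 CPM in 5XFAD. These groups overlapped, and its log2FC of -1.14 (SE 0.32, FDR = 0.0273) missed the threshold without any 1 of 5 libraries (M WT NX 1, 3 or 5 and M 5XFAD NX 2 or 3), with an FDR of 0.0585 to 0.0728. With the replicate block the FDR of Fosb was 0.083. Junb (log2FC -0.31, SE 0.20, FDR = 0.348) and Jund (-0.08, SE 0.33, FDR = 0.919) did not pass, and their groups overlapped.

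Nr4a1 showed the clearest separation of the set. It was at 66.2, 45, 55.8, 31.9 and 65.7 CPM in M WT NX and at 21.5, 23.1, 17.1, 17.7 and 19.1 CPM in M 5XFAD NX. The highest 5XFAD library was below the lowest WT library, and the log2FC of -1.43 (SE 0.19, FDR = 2.49e-04) was larger in size than that of 94.0% of tested genes. Egr1 was at 138, 130, 163, 91.1 and 173 CPM in WT and at 77.1, 80.3, 52.5, 87.8 and 62.6 CPM in 5XFAD, again without overlap (log2FC -0.94, SE 0.19, FDR = 0.00347). Thus 4 of the 10 genes (Fos, Jun, Egr1 and Nr4a1) had no 5XFAD library as high as the lowest WT library, a pattern that 7.42% of tested genes showed (8.57% in the other direction). Fos, Egr1 and Nr4a1 passed in all 20 alternative fits. Ier2 (-0.52, SE 0.23, FDR = 0.15) and Dusp1 (-0.52, SE 0.19, FDR = 0.0901) had negative log2FC and did not pass, while Dusp1 passed without M WT NX 4 (-0.64, FDR = 0.0298). Under scaling by library size alone Junb (-0.53, FDR = 0.0417), Ier2 (-0.74, FDR = 0.0188) and Dusp1 (-0.71, FDR = 0.0245) passed, and Ier2 did so with GC content and length trends removed (-0.48, FDR = 0.00703).

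Atf3 went the other way in the same libraries. It was at 87.3, 80, 109, 46.8 and 84.5 CPM in M WT NX and at 145, 148, 140, 134 and 93.8 CPM in M 5XFAD NX. Only the lowest 5XFAD library reached into the WT range, and the log2FC was 0.69 (SE 0.20, FDR = 0.0281). The FDR lay between 0.0546 and 0.0644 when M WT NX 2 or 5 or M 5XFAD NX 1, 2 or 3 was left out, and at 0.0936 under scaling by library size alone, which moved the median log2FC of all tested genes to -0.16. With the replicate block the FDR of Atf3 was 0.068.

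The same 6 genes passed when M 5XFAD NX 4 and 5, the libraries that stood apart, were both left out. In that fit 33.5% of 14299 tested genes passed, against 17.8% with both libraries in. Fos was then at -0.97 (FDR = 0.00157), Fosb at -1.30 (FDR = 0.00661), Jun at -0.61 (FDR = 0.00617), Egr1 at -0.99 (FDR = 8.96e-04), Nr4a1 at -1.37 (FDR = 2.07e-04) and Atf3 at 0.81 (FDR = 0.00297). Jund moved from -0.08 to 0.34 (FDR = 0.212), Ier2 to -0.21 and Junb to -0.06, and none of these passed.

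In M WT CIH vs M 5XFAD CIH, 4 of the 10 genes passed an FDR of 0.05, all higher in 5XFAD, where 49% of 14793 tested genes passed (25.3% higher and 23.7% lower). The difference between this comparison and the one under NX is tested below as an interaction, in which none of the 10 genes passed with the edgeR quasi-likelihood test. Atf3 alone was a DEG, against 18.7% of tested genes. It was at 89.2, 52.9, 41.5, 54.5 and 55.8 CPM in M WT CIH and at 273, 141, 189, 143 and 186 CPM in M 5XFAD CIH. No library overlapped, as for 19.4% of tested genes in this direction (16.5% in the other), and the log2FC of 1.67 (SE 0.21, FDR = 1.85e-05) passed in all 19 alternative fits with a range of 1.3 to 1.87.

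The other 3 genes that passed were those of the second block, Junb (0.65, SE 0.22, FDR = 0.0268), Jund (0.68, SE 0.17, FDR = 0.00493) and Ier2 (0.68, SE 0.22, FDR = 0.0211). These 3 calls turned on the scaling. Removing a trend on GC content and transcript length from each library brought Junb to 0.14 (FDR = 0.616), Jund to -0.011 (FDR = 0.953) and Ier2 to 0.13 (FDR = 0.646). Scaling by library size alone, which moved the median log2FC of all tested genes from -0.06 to -0.43, brought them to 0.28, 0.29 and 0.31, and none passed. Junb also missed the threshold without any 1 of M WT CIH 2, 3, 4 or 5 or M 5XFAD CIH 1 or 3 (FDR 0.0504 to 0.0798), and Ier2 without M WT CIH 2, 3 or 4 or M 5XFAD CIH 1 (FDR 0.0557 to 0.0577).

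Fos, Fosb, Jun, Egr1 and Nr4a1, with log2FC of -0.31, -0.39, -0.36, -0.26 and -0.46, did not pass in males under CIH. Nr4a1 was at 56.2, 39.3, 28.3, 35.1 and 41.6 CPM in M WT CIH and at 48.7, 31.1, 27.9, 22.3 and 15.3 CPM in M 5XFAD CIH, and the groups overlapped. These calls depended on M 5XFAD CIH 1. Without that library, Fos (-0.67, FDR = 0.00556), Fosb (-0.63, FDR = 0.0238), Jun (-0.60, FDR = 0.0365) and Nr4a1 (-0.72, FDR = 0.0162) all passed as lower in 5XFAD. It had the highest level of its group in 9 of the 10 genes. The share of all tested genes that passed without M 5XFAD CIH 1 is not given here. Scaling by library size alone put the same 4 genes past the threshold (-0.67, -0.76, -0.71 and -0.81), a move that all tested genes shared in their median. In that fit 5 of the 10 genes passed, where 60.9% of all tested genes did. Dusp1 was at 0.40 (SE 0.27, FDR = 0.235) and moved to -0.02 without M 5XFAD CIH 1. With no filter on low counts 8 of the 10 genes passed, where 19.7% of 37228 genes did and the median log2FC of all genes was -0.59. The 4 gained were Fosb (FDR = 0.0393), Jun (0.0207) and Nr4a1 (0.0054) as lower and Dusp1 (0.0114) as higher. With GC content and length trends removed, Nr4a1 passed as lower (-0.70, FDR = 0.0402), and 2 of the 10 genes passed in all (Atf3 and Nr4a1), where 47.5% of all tested genes did.

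**Figure D4:**
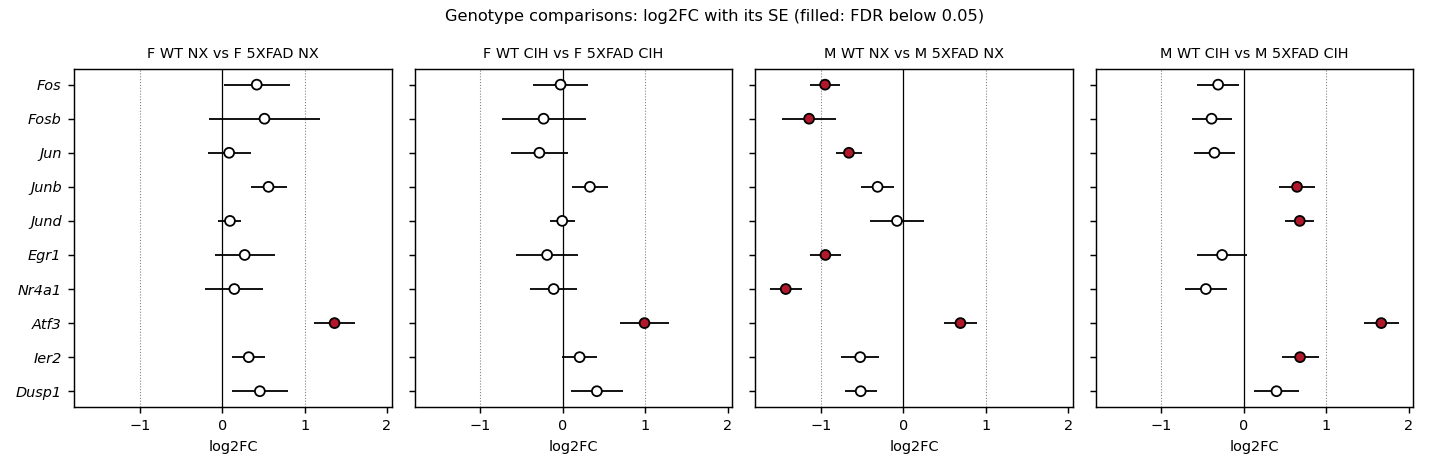
Log2FC (points) with SE (bars) of the 10 genes in the 4 genotype comparisons, 5XFAD over WT; filled points have an FDR below 0.05 and dotted lines mark a log2FC of -1 and 1. Atf3 lies to the right in all 4 panels, and Fos, Fosb, Jun, Egr1 and Nr4a1 lie to the left and are filled in M WT NX vs M 5XFAD NX.

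In females, Atf3 alone of the set passed an FDR of 0.05 in the genotype comparisons with the edgeR quasi-likelihood test. In F WT NX vs F 5XFAD NX it was the 1 gene of 10 that passed an FDR of 0.05 (13.9% of 14513 tested genes, 7.26% higher and 6.61% lower) and the 1 DEG (5.99% of tested genes). It was at 106, 117, 67.7 and 86.5 CPM in F WT NX and at 234, 326, 167, 161 and 321 CPM in F 5XFAD NX. The groups did not overlap, as for 3.21% of tested genes in this direction (8.5% in the other), and the log2FC was 1.36 (SE 0.25, FDR = 0.0177). The call was lost without F WT NX 3 (FDR = 0.0647), F WT NX 4 (0.0562) or F 5XFAD NX 5 (0.0505), while the log2FC stayed between 1.23 and 1.49 whichever library was left out. It was lost with the replicate block as well (FDR = 0.0569), where 0.0482% of all tested genes passed. F 5XFAD NX 4 had the lowest Atf3 of its group, and without it the log2FC was 1.47 (FDR = 6.61e-04). All-gene calls turned on the same libraries, with 869 DEGs in all, 27 without F WT NX 3 and 1880 without F 5XFAD NX 4.

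The remaining 9 genes all had positive log2FC in that comparison, from 0.08 (Jun) to 0.56 (Junb, SE 0.22, FDR = 0.104), and none passed. Junb was at 439, 470, 314 and 361 CPM in F WT NX and at 515, 741, 399, 471 and 795 CPM in F 5XFAD NX, with overlap, and passed without F 5XFAD NX 4 (log2FC 0.62, FDR = 0.0390) and with DESeq2 (FDR = 0.0447). Nr4a1, lower in the male comparison, had a log2FC of 0.15 (SE 0.35, FDR = 0.791) in females, where its libraries ran from 42.6 to 127 CPM in WT and from 50.9 to 138 CPM in 5XFAD. Fos had a log2FC of 0.42 with an SE of 0.40 (FDR = 0.477), which was 0.91 without F WT NX 2, 0.19 without F WT NX 3, 0.28 without F WT NX 4 and 0.16 without F 5XFAD NX 4. The log2FC of Jun and Nr4a1 turned negative without F WT NX 3 (-0.04 and -0.06) and without F 5XFAD NX 4 (-0.07 and -0.08).

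In F WT CIH vs F 5XFAD CIH, Atf3 again was the 1 gene that passed an FDR of 0.05, where 51.9% of 14911 tested genes passed (26.2% higher and 25.7% lower), and it fell just short of the DEG rule (13% of tested genes). It was at 102, 109, 246, 99.1 and 70.8 CPM in F WT CIH and at 144, 249, 240, 258 and 342 CPM in F 5XFAD CIH. The groups, which were free of overlap for 18.8% (higher) and 19.6% (lower) of tested genes, overlapped through F WT CIH 3, the library that was high for all 10 genes. F 5XFAD CIH 1, the lowest of its group, lay above the other 4 WT libraries. The log2FC was 0.99 (SE 0.30, FDR = 0.0132), and 1.39 without F WT CIH 3 (FDR = 1.38e-04). All 19 alternative fits kept the FDR below 0.05. The other 9 genes had log2FC from -0.28 (Jun) to 0.41 (Dusp1, SE 0.31, FDR = 0.287). Dusp1 passed without F WT CIH 3 (log2FC 0.80, FDR = 0.0142). Without that library the log2FC of Fos (0.39), Fosb (0.39), Jun (0.19), Jund (0.16) and Egr1 (0.29), negative in the full fit, were positive, and none of these passed. That of Nr4a1, also negative, ran up to 0.19 with 1 library left out.

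Because libraries differed in the level of the whole set, the counts of Atf3 and Nr4a1 were also set against each other within each library. This pair was chosen after its values were seen, so its separation by genotype owes in part to that choice. The ratio is a description with no test. Between libraries the 2 genes moved together only in part (r = 0.54 in females and 0.67 in males), so the ratio does not fully remove a shared level. Counts of Atf3 per count of Nr4a1 were 1.32, 1.78, 1.96, 1.47 and 1.29 in M WT NX and 1.59, 1.34, 1.46, 1.55 and 1.34 in M WT CIH. In M 5XFAD NX they were 6.75, 6.40, 8.16, 7.54 and 4.92, and in M 5XFAD CIH 5.60, 4.54, 6.76, 6.39 and 12.1. All 10 male 5XFAD libraries lay above all 10 male WT libraries. In females the WT libraries ran from 0.92 to 1.65. The F 5XFAD CIH libraries, at 3.76, 2.33, 2.52, 3.30 and 4.72, lay above them, and the F 5XFAD NX libraries were at 4.59, 5.13, 1.93, 1.17 and 3.05. F 5XFAD NX 4, at 1.17, was the 1 5XFAD library within the WT range.

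The treatment comparison asks what CIH changed at a given genotype. None of the 10 genes passed in F WT NX vs F WT CIH or in F 5XFAD NX vs F 5XFAD CIH with the edgeR quasi-likelihood test, and neither did any other gene (0% of 14583 and 14578 tested genes, with 565 and 470 at an unadjusted p under 0.05). None of the 10 had an unadjusted p under 0.05 in either comparison, and DESeq2, the likelihood ratio test and limma also called 0 of them. The groups overlapped for all 10 genes, as they did for all but 0.528% (higher) and 0.377% (lower) of tested genes in WT and 0.288% and 0.364% in 5XFAD. In WT females the log2FC ran from -0.20 (Dusp1) to 0.41 (Atf3, SE 0.32) and in 5XFAD females from -0.46 (Fos, SE 0.31) to 0.04 (Ier2, SE 0.21). Single libraries moved these values: Atf3 was at 0.01 and Dusp1 at -0.59 without F WT CIH 3, and Dusp1 was at 0.11 without F WT NX 2. In 5XFAD females Fos was at -0.21 without F 5XFAD NX 4 and at -0.29 without F 5XFAD CIH 1, and Ier2 ran from -0.05 to 0.20 with each library left out. Egr1 was at 207, 419, 149 and 188 CPM in F WT NX and at 276, 264, 674, 237 and 140 CPM in F WT CIH, so that the spread within a group exceeded the difference between groups.

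In males, none of the 10 genes passed in M WT NX vs M WT CIH, although 28.6% of 14983 tested genes passed an FDR of 0.05 (13.6% higher and 15% lower) and 2.51% were DEGs. With all 4 male groups in 1 fit 0 genes passed in this comparison, so the calls of the gene lists described further on were lost under that fit. The groups overlapped for all 10, whereas 8.18% of tested genes were higher and 9.12% lower without overlap. Fosb (log2FC -0.62, SE 0.23, FDR = 0.0549), Ier2 (-0.51, SE 0.20, FDR = 0.0761), Atf3 (-0.48, SE 0.20, FDR = 0.0930) and Jund (-0.42, SE 0.19, FDR = 0.115) came nearest. These 4 of the 10 had an unadjusted p under 0.05, as did 5964 of the 14983 tested genes, a similar share. DESeq2 and limma called 0 of the 10 genes at an FDR of 0.05, the likelihood ratio test 2 (Fosb and Ier2, where 30.6% of all tested genes passed) and the filter of 10 counts in every library 1 (Fosb, 35.1%). The fit with no filter on low counts called 5 (Fosb, Jund, Ier2, Atf3 and Nr4a1), where 11.7% of 37231 genes passed and the median log2FC of all genes was 0.40. M WT CIH 1, the high library of its group, bore on this. Ier2 was at 58.9, 65.4, 72.4, 87.3 and 99.2 CPM in M WT NX and at 88.2, 42.5, 37.2, 43 and 58.5 CPM in M WT CIH. Without M WT CIH 1 the log2FC of Ier2 was -0.75 (FDR = 0.00292), and Atf3 (-0.67, FDR = 0.0124), Junb (-0.48, FDR = 0.0129), Jund (-0.56, FDR = 0.0335) and Nr4a1 (-0.54, FDR = 0.0379) passed as well, all lower under CIH. Omitting M WT NX 4 let Fosb (-0.80, FDR = 0.00640), Atf3 (-0.62, FDR = 0.0198) and Nr4a1 (-0.54, FDR = 0.0325) pass. Fosb also passed without M WT NX 2 or M WT CIH 2, Jund without M WT NX 3 and Ier2 without M WT NX 1. None of these exceeded an absolute log2FC of 1. The share of all tested genes is not given here for the fits without 1 library. With GC content and length trends removed 0 of the 10 genes passed, where 16.3% of all tested genes did. In that fit 1 of the 10 had an unadjusted p under 0.05. Over the 19 alternative fits the log2FC ran up to 0.21 for Junb and 0.17 for Jund, so their sign was not kept.

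In M 5XFAD NX vs M 5XFAD CIH all 10 log2FC were positive, from 0.13 (Fosb, SE 0.33) to 0.70 (Ier2, SE 0.24), with a median of 0.55 against -0.01 over all tested genes. None passed (FDR = 0.995 for each), nor did any other of 14334 tested genes (0%), of which 473 had an unadjusted p under 0.05. Of the 10 genes, 5 (Junb, Ier2, Atf3, Dusp1 and Nr4a1) had an unadjusted p under 0.05. The groups overlapped for all 10 (0.272% of tested genes were higher and 0.509% lower without overlap). DESeq2 and the likelihood ratio test each called 1 gene in all and 0 of the 10. Dusp1 was at 55.4, 50.9, 38.8, 53.4 and 36.2 CPM in M 5XFAD NX and at 148, 68.1, 56, 50.3 and 45.7 CPM in M 5XFAD CIH, and library 1 alone was far above the rest. Without M 5XFAD CIH 1 the log2FC of Dusp1 went from 0.65 to 0.23, that of Fos from 0.60 to 0.23, that of Nr4a1 from 0.56 to 0.30, that of Egr1 from 0.53 to 0.25 and that of Jun from 0.50 to 0.25, while Ier2 (0.56) and Junb (0.49) kept most of theirs. Without M 5XFAD NX 4 and 5, Ier2 was at 0.39, Junb at 0.44, Jund at -0.09, where it had been positive, and Dusp1 at 0.62, and 1 of the 10 genes (Ier2) had an unadjusted p under 0.05.

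**Figure D5:**
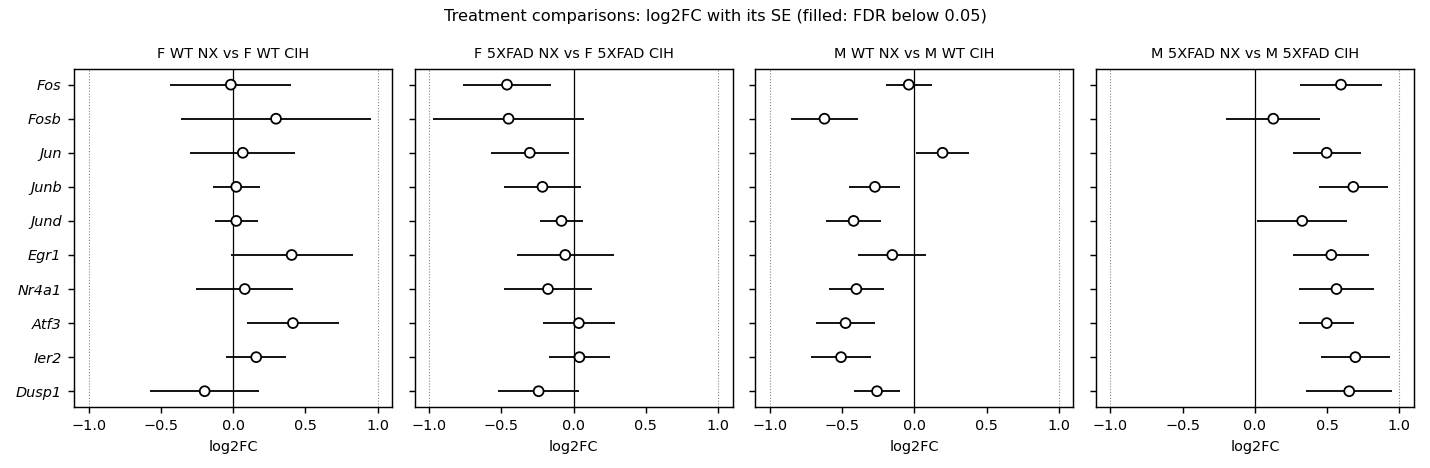
Log2FC (points) with SE (bars) of the 10 genes in the 4 treatment comparisons, CIH over NX; an FDR below 0.05 would be a filled point, and there is none. Most genes lie left of 0 in M WT NX vs M WT CIH and all 10 lie right of it in M 5XFAD NX vs M 5XFAD CIH.

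Whether the genotype difference changed with treatment was tested as an interaction over the 4 groups of a sex. None of the 10 genes passed in females (0% of 15582 tested genes, 589 at an unadjusted p under 0.05) or in males (0% of 15813, 3857 at an unadjusted p under 0.05) with the edgeR quasi-likelihood test. In males all 10 interaction terms were positive, that is, the 5XFAD level relative to WT was higher under CIH than under NX, from 0.30 (Jun, SE 0.32, FDR = 0.586) to 1.2 (Ier2, SE 0.35, FDR = 0.117). Unadjusted p was under 0.05 for 5 of them (Junb, Ier2, Atf3, Dusp1 and Nr4a1). Other tools and filters differed. DESeq2 passed Ier2 (FDR = 0.0276), Junb (0.0412) and Atf3 (0.0350), where 6.43% of all tested genes passed, and called 308 DEGs in all. The likelihood ratio test passed Ier2 (0.0484), where 1.57% of all tested genes passed. With no filter on low counts 6 of the 10 passed, Ier2 (1.32e-04), Atf3 (0.00141), Junb (0.00203), Nr4a1 (0.00669), Dusp1 (0.00713) and Jund (0.0403), where 4.57% of 38365 genes passed (790 DEGs) and the median term of all genes in the fit moved from -0.04 to -0.50. Ier2 also passed without M 5XFAD NX 1 (0.0476), and over the 29 alternative fits its FDR ran up to 0.379, the value without M 5XFAD NX 4 and 5, where its term was 0.89. With GC content and length trends removed the term of Ier2 was 0.66 and that of Junb 0.41, and 0 of the 10 passed. In females all 10 terms were negative, from -0.05 (Dusp1) to -0.75 (Fosb, SE 0.91), and DESeq2, the likelihood ratio test and limma called 0 genes. The shared sign depended on single libraries. With 1 library left out the terms reached 0.33 (Dusp1), 0.09 (Jun), 0.05 (Jund), 0.03 (Ier2 and Nr4a1), 0.01 (Atf3) and 0.00 (Egr1). Those of Fos, Fosb and Junb stayed negative. Since the 4 groups enter both genotype and both treatment comparisons, these results share samples.

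Other immediate early genes from a list of 40 did not all follow the 10. In M WT NX vs M 5XFAD NX, 2 of the 38 tested passed as higher and 10 as lower in 5XFAD, where 10.4% and 7.37% of all tested genes did, and their median log2FC was -0.22. The 2 that rose were Maff (log2FC 3.66, SE 0.30, FDR = 3.57e-06), which encodes a small Maf protein that pairs with CNC and AP-1 type factors, and Egr2 (1.65, SE 0.16, FDR = 1.48e-05), a zinc finger relative of Egr1. Trib1 (-0.76) and Btg2 (-0.53) were the 2 with the smallest FDR among those that fell. Under CIH, 9 of 40 passed as higher in 5XFAD males and 5 as lower (25.3% and 23.7% of all tested genes), led by Maff (4.84, SE 0.45), Egr2 (1.63, SE 0.20), Gadd45b (2.62, SE 0.34), a growth arrest and stress gene, and Klf2 (-1.0, SE 0.15), a Kruppel-like factor. The Egr pair therefore parted in 5XFAD males kept in normoxia, with Egr1 lower and Egr2 higher. In 5XFAD females, 4 of 38 passed as higher and 3 as lower under NX (7.26% and 6.61% of all tested genes), among them Egr2 (1.34, SE 0.30, FDR = 0.0266), Maff (2.71, SE 0.63, FDR = 0.0288) and Cebpd (-1.09, SE 0.19, FDR = 0.0170), and 12 as higher and 10 as lower under CIH (26.2% and 25.7%). With the replicate block 7 of all 14513 tested genes passed in the female NX comparison, so most of its calls over all genes were lost. In M WT NX vs M WT CIH, 3 of 38 passed as higher and 3 as lower (13.6% and 15% of all tested genes), among them the MAP kinase phosphatase genes Dusp5 (-1.25, SE 0.30, FDR = 0.00582) and Dusp2 (-1.16, SE 0.33, FDR = 0.0151), and none of them did with the 4 male groups in 1 fit. In the other treatment comparisons 0 of these genes passed, as of all genes.

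Of 21 upstream kinases and factors, 2 passed as higher and 2 as lower in M WT NX vs M 5XFAD NX, 4 and 10 in M WT CIH vs M 5XFAD CIH, 1 and 1 in F WT NX vs F 5XFAD NX, and 5 and 7 in F WT CIH vs F 5XFAD CIH. Over all tested genes, 17.8%, 49%, 13.9% and 51.9% passed in these comparisons in either direction, so counts of this size are close to the background in most of them. Crem, a CREB family gene with an inducible repressor isoform, rose in 5XFAD in each of these, by 1.36 (SE 0.23), 1.18 (SE 0.19), 1.22 (SE 0.31) and 1.02 (SE 0.13). Rps6ka1, which encodes the MAP kinase-activated kinase RSK1, fell by 0.89, 0.57, 0.62 and 0.80 in the same order. In M WT NX vs M WT CIH, 6 of the 21 passed as higher (13.6% of all tested genes), including Creb1 (0.70, SE 0.10, FDR = 2.92e-04) and the coactivator gene Ep300 (0.69, SE 0.12, FDR = 7.11e-04), and 2 as lower, Mapk3 (-0.47) and Map2k2 (-0.42), which encode kinases of the ERK pathway. All 8 calls were lost with the 4 male groups in 1 fit.

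The list of 16 relatives of AP-1 and CREB/ATF proteins shares Fosl1, Fosl2 and Maff with the other immediate early genes and Atf2 with the upstream factors. It held 2 genes that passed as higher and 2 as lower in M WT NX vs M 5XFAD NX, where 17.8% of all tested genes passed. Atf5 (1.55, SE 0.38, FDR = 0.0140) and Maff rose, and Maf (-1.04, SE 0.10, FDR = 1.43e-05), which encodes a large Maf factor of mature macrophages, and Fosl2 (-0.67, SE 0.19, FDR = 0.0283), a Fos relative, fell. Under CIH in males 3 passed as higher and 4 as lower (49% of all tested genes passed), with Atf5 at 2.16 (SE 0.18) and Maf at -1.14 (SE 0.11). In females 1 passed as higher and 4 as lower of 15 under NX, and 5 and 5 under CIH (13.9% and 51.9% of all tested genes), with Maf at -0.96 (SE 0.16) and -1.11 (SE 0.07). Between M WT NX and M WT CIH, 0 of 16 passed, where 28.6% of all tested genes did.

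Of 13 heat shock genes, which are induced by warmth and protein damage, 4 passed as higher and 0 as lower in M WT NX vs M WT CIH (13.6% and 15% of all tested genes), namely Hsph1 (1.66, SE 0.31, FDR = 0.00139), Dnaja1 (1.02, SE 0.21, FDR = 0.00227), Hsp90aa1 (0.56, SE 0.17, FDR = 0.0239) and Hspa1b (1.57, SE 0.56, FDR = 0.0457). With all 4 male groups in 1 fit these 4 calls were lost, as were those of all other genes. None of the 10 immediate early genes passed in that comparison. In the genotype comparisons 4 heat shock genes passed as higher and 1 as lower in males under each treatment, 5 and 0 in females under NX and 4 and 2 in females under CIH. Over all tested genes 17.8% and 49% passed in the male comparisons and 13.9% and 51.9% in the female ones. Hsp90ab1 rose in 5XFAD in all 4, by 0.91 (SE 0.14) and 0.83 (SE 0.16) in males and 0.75 (SE 0.21) and 0.68 (SE 0.14) in females.

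Early cytokine genes, 14 in the list and 13 tested, passed as higher and lower in numbers of 3 and 3 in M WT NX vs M 5XFAD NX, 7 and 3 in M WT CIH vs M 5XFAD CIH, 3 and 1 in F WT NX vs F 5XFAD NX and 7 and 3 in F WT CIH vs F 5XFAD CIH. Over all tested genes 17.8%, 49%, 13.9% and 51.9% passed in these comparisons. Those of the chemokines Ccl3 and Ccl4 and of Cd83, an activation marker, rose in all 4. They rose by 2.59 (SE 0.26), 2.30 (SE 0.25) and 1.29 (SE 0.11) in M WT NX vs M 5XFAD NX, the same libraries in which Fos, Jun, Egr1 and Nr4a1 were lower. Il6, which encodes an inflammatory cytokine, fell in all 4, by 1.13 (SE 0.29) in that comparison. Between M WT NX and M WT CIH, 0 passed as higher and 3 as lower (15% of all tested genes were lower), Cxcl10 (-1.21, SE 0.34), Cd83 (-0.23, SE 0.07) and Il1b (-0.66, SE 0.24), all lost with the 4 male groups in 1 fit.

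Several measures of the libraries moved with genotype or treatment beside these results. For the marker counts that follow, the shares of all tested genes that passed as higher and as lower in 5XFAD were 10.4% and 7.37% in males under NX, 25.3% and 23.7% in males under CIH, 7.26% and 6.61% in females under NX and 26.2% and 25.7% in females under CIH, so that 1 or 2 markers of 6 in a direction under CIH are near the background. Of the 8 microglial markers, 6 passed as lower in 5XFAD in M WT NX vs M 5XFAD NX, 5 in males under CIH, 5 in females under NX and 6 in females under CIH, and 1 passed as higher, in males under CIH. Their summed level was 27381 to 30419 CPM in M WT NX and 17980 to 22269.5 CPM in M 5XFAD NX. Of 6 border macrophage markers (Mrc1, Cd163, Lyve1, Pf4, F13a1, Cbr2), 6 passed as lower in 5XFAD females under each treatment, 5 in males under NX and 3 in males under CIH. Their summed level was 218 to 303 CPM in M WT NX and 88.6 to 135 CPM in M 5XFAD NX, and none of the 6 passed as higher.

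Astrocyte markers, 6 listed, summed to 130 to 173 CPM in M WT NX and 357 to 962 CPM in M 5XFAD NX, with 2 passing as higher and 1 as lower. They summed to 152 to 211 and 214 to 583 CPM in the male CIH groups, 160 to 216 and 134 to 344 CPM in the female NX groups and 158 to 193 and 222 to 617 CPM in the female CIH groups, WT before 5XFAD. In these 3 comparisons 1 passed as higher and 2 as lower, 1 and 1, and 3 and 1. Choroid plexus markers, 6 listed, passed as lower in 5XFAD in 2 cases in females under NX (453 to 1370.06 CPM in WT and 24.0 to 386 CPM in 5XFAD), 4 in females under CIH, 1 in males under NX and 2 in males under CIH. T cell markers, 4 of which were tested in males under CIH, with 3 passing as higher and 1 as lower in 5XFAD, summed to at most 6.01 CPM in M WT CIH and 12.5 CPM in M 5XFAD CIH. Neutrophil markers, 6 listed, passed as lower in 5XFAD in 2 cases in males under CIH and 3 in females under CIH. Oligodendrocyte markers passed as higher in 2 cases and as lower in 0 in M WT NX vs M 5XFAD NX, 1 and 0 in males under CIH, 0 and 1 in females under NX and 1 and 1 in females under CIH. Erythroid markers passed as lower in 2 cases and neuronal ones in 1 in M WT NX vs M 5XFAD NX, a neuronal one also passed as lower in females under CIH, and of the endothelial markers 1 passed as higher and 1 as lower in each genotype comparison.

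Between M WT NX and M WT CIH, 5 of 6 neutrophil markers passed as lower under CIH, with summed levels of 203 to 1097 CPM and 95.0 to 276 CPM, where 15% of all tested genes were lower and 13.6% higher. Of the other lists, 3 of 8 microglial, 2 of 6 border macrophage and 1 of 5 erythroid markers passed as lower, 1 of 5 astrocyte and 1 of 6 oligodendrocyte markers passed as higher, and 0 neuronal, endothelial, T cell and choroid plexus markers passed. With the 4 male groups in 1 fit all of these calls were lost. In the other 3 treatment comparisons 0 markers passed, as of all genes.

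Mitochondrial genes took 1.25% to 1.71% of counts in M WT NX, 0.965% to 1.2% in M WT CIH, 1.69% to 2.39% in M 5XFAD NX and 1.64% to 2.26% in M 5XFAD CIH. In females they took 1.0% to 1.24% in F WT NX, 0.828% to 1.0% in F WT CIH, 1.23% to 1.46% in F 5XFAD NX and 1.21% to 1.73% in F 5XFAD CIH. The part of these measures in the differences of the 10 genes was not tested. In libraries of a whole isolate, fewer cells with high expression and less RNA per cell cannot be told apart.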

How the data were processed

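RNA sequencing libraries of CD11b+ microglia (19 from females, 20 from males) were analysed from 2 deposited gene tables. Per the labels and the study's methods, the authors aligned reads with HISAT2 to GRCm38 (mm10); the version and the counter are not given in the sources used here. The deposited counts were raw reads per gene, listed by symbol, with Ensembl identifiers in the male table. The deposited FPKM values, scaled by the authors per length and library, were used for levels between genes and in 1 alternative.

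Each pair of groups within a sex was fitted alone with edgeR 4.0.16 (R 4.3.3), with TMM scaling, genes over 1 CPM in at least 3 libraries, and the quasi-likelihood F test. Interactions used all 4 groups. DEGs had an FDR below 0.05 and an absolute log2FC above 1. SE was the absolute log2FC over the root of F. The fit was tested on simulated data. Log2 CPM used a prior count of 1. Alternatives were DESeq2 1.42.0, the likelihood ratio test, library size scaling, other filters and thresholds, limma 3.58.1 on log2(FPKM + 1), a replicate block, 1 fit of 4 groups, each library left out, and, added after seeing the data, removal of GC content and length trends (over 90% of tested genes had both values) and of M 5XFAD NX 4 and 5. Depth per library is in the text; it sets counting error only. All 10 genes were named in every comparison, at most 4 genes per list by FDR, and the 5 nearest genes per sex. The genes and lists were chosen with earlier results of these data known. A further microglial marker is not reported here.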

Additional observations from a re-analysis of the deposited data

Results flagged for a closer look

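Within the 80 combinations of gene and group (4 or 5 libraries each), 13 had 1 library separated from the nearest other by more than 0.829 (4 libraries) or 0.710 (5 libraries) of the whole range of the group, the 95% critical values of Dixon's test. Chance alone gives about 1 in 20 groups, and the genes of a library are not independent. F WT CIH 3 gave 7 of them. It had Fos at 508 CPM (others 137 to 214), Jun at 1312 (399 to 534), Junb at 561 (345 to 386), Jund at 436 (247 to 289), Egr1 at 674 (140 to 276), Atf3 at 246 (70.8 to 109) and Dusp1 at 171 (55.3 to 78.3). F WT NX 2 had Fosb at 179 CPM, where the others had 24.4 to 47.4.

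In males, M 5XFAD CIH 1 had Fos at 234 CPM (others 69.3 to 116) and Dusp1 at 148 (45.7 to 68.1). M WT CIH 1 had Jun at 605 CPM (303 to 329) and Junb at 444 (222 to 280). A library far below its group was M 5XFAD NX 5 for Atf3, at 93.8 CPM against 134 to 148. No gene of the 10 separated completely in opposite directions in any of the 8 pairs of contrasts compared, and no interaction passed an FDR of 0.05 with the edgeR quasi-likelihood test. In the male interaction DESeq2 passed 3 of the 10 genes, the likelihood ratio test 1 and the fit with no filter on low counts 6.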

How the results depend on the processing

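The counts of DEGs among the 10 genes depended on the settings as follows. In M WT NX vs M 5XFAD NX (2 DEGs), there were 6 with the FDR alone, 1 with an FDR below 0.01, 4 with library size scaling and 1 with limma. In M WT CIH vs M 5XFAD CIH (1), there were 4 with the FDR alone. In F WT NX vs F 5XFAD NX (1), there were 0 with an FDR below 0.01. In F WT CIH vs F 5XFAD CIH (0), there was 1 with the FDR alone, with DESeq2 and with no filter. In the male interaction (0), there was 1 with DESeq2, with the likelihood ratio test and with no filter. With each library left out, the count ran from 1 to 4 in M WT NX vs M 5XFAD NX and from 0 to 1 in both female genotype comparisons and the male interaction, and did not change elsewhere. Jund in M WT CIH vs M 5XFAD CIH reversed to -0.011 once GC content and length trends were removed. The cause of these changes was not tested.

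Replicate numbers are shared labels: over 27 female and 30 male pairs of equal number, deviations from group means correlated at -0.34 to 0.35 and -0.49 to 0.30. With the replicate block, the count of DEGs was 0 in F WT NX vs F 5XFAD NX, 1 in F WT CIH vs F 5XFAD CIH and 1 in M WT NX vs M 5XFAD NX, and the same as without it in the other comparisons and interactions. Of the 10 genes, those with an FDR below 0.05 went from 6 to 3 in M WT NX vs M 5XFAD NX, where Jun (0.0813), Atf3 (0.068) and Fosb (0.083) were lost, from 4 to 6 in M WT CIH vs M 5XFAD CIH, from 1 to 0 in F WT NX vs F 5XFAD NX (Atf3, 0.0569) and from 0 to 1 in M WT NX vs M WT CIH (Ier2, 0.0413). Over all tested genes the share with an FDR below 0.05 went in the same order from 17.8% to 8.83%, 49% to 48.1%, 13.9% to 0.0482% and 28.6% to 25.7%. Leaving out M 5XFAD NX 4 and 5 changed no count of DEGs or of genes with an FDR below 0.05 among the 10. Over all tested genes in M WT NX vs M 5XFAD NX, the share with an FDR below 0.05 then went from 17.8% to 33.5%.

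The median within-group SD of the 10 genes was 0.579 in females (0.499 to 0.599 with each library left out, lowest without F WT CIH 3) and 0.431 in males (0.372 to 0.444), and 0.625 and 0.459 with library size scaling. Over all tested genes, DEGs in F WT NX vs F 5XFAD NX numbered 869, with 1180 by the likelihood ratio test, 1197 by DESeq2, 457 by limma, 1330 in 1 fit of 4 groups and 7 each with the block and with an FDR below 0.01. Limma called 1020 against 1932 DEGs in F WT CIH vs F 5XFAD CIH, 708 against 1224 in M WT NX vs M 5XFAD NX, 1571 against 2764 in M WT CIH vs M 5XFAD CIH and 126 against 376 in M WT NX vs M WT CIH, where 1 fit of 4 groups called 0. Of the DEGs in M WT NX vs M 5XFAD NX, 72.0% were higher in 5XFAD, and 50.9% with library size scaling. These shares were 63.2% and 31.2% in M WT CIH vs M 5XFAD CIH, 68.2% and 50.7% in F WT CIH vs F 5XFAD CIH, and 64.9% and 78.7% higher under CIH in M WT NX vs M WT CIH.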
